A study of Saccharomyces cerevisiae and Saccharomyces paradoxus with 16 samples.

Results

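Cryptic unstable transcripts (CUTs) around the centromeres of S288c, the reference laboratory strain of *S.cerevisiae*, were taken from the deposited annotation as the CUTs whose midpoint lay within 50 kb of a centromere. This rule found 222 of the 1724 CUTs on 14 chromosomes, and the 1502 CUTs farther away on the same chromosomes served for comparison. A further 331 of the 2055 CUTs in the annotation carry the label chrXII, under which chromosome XIII is also listed, and were left out. The study surveyed CUTs in 4 yeast strains with 16 strand-specific RNA-seq libraries of poly(A) RNA, of which 4 are from S288c, 2 of *rrp6*Δ and 2 of WT cells. The S288c *rrp6*Δ cells carry rrp6::KanMX, his3Δ1, leu2Δ0, ura3Δ0 and met15Δ0, and the WT cells carry his3Δ1, lys2Δ0, leu2Δ0 and ura3Δ0. Both therefore lack HIS3, LEU2 and URA3 function and differ at RRP6, at LYS2 and at MET15. Cells were grown in YPD to mid-log phase. Replicate 1 of each group was selected on poly(A) in a single round with the Oligotex kit and replicate 2 in repeated rounds with Dynabeads.

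CUTs are noncoding transcripts of RNA polymerase II that are terminated with the help of the RNA-binding proteins Nrd1 and Nab3, handed to the TRAMP complex and degraded by the nuclear exosome. Rrp6p is a catalytic subunit of the nuclear exosome, so CUTs become visible in *rrp6*Δ cells. A budding yeast centromere is a short stretch of DNA with 3 conserved elements: CDEI, which is bound by the transcription factor Cbf1, CDEII, which is rich in A and T, and CDEIII, on which the kinetochore begins to assemble. A nucleosome with the histone variant Cse4 sits over these elements, and no gene lies inside them.

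The authors list for each CUT its average *rrp6*Δ coverage and its average WT coverage per nucleotide, each averaged over the 2 replicates before deposit. Every CUT therefore has 1 value per group with no replicate error, and no test between groups was possible. Coverage is scaled to the number of mapped reads, and read depth was not analysed here. CUTs had been selected by the authors for higher coverage in *rrp6*Δ than in WT and for a minimum *rrp6*Δ coverage and length, so a higher value in *rrp6*Δ is a property of the annotation and not a finding about centromeres. The authors also brought back some filtered CUTs that the other strains held, and edited some regions by hand. The annotation is ordered by *rrp6*Δ coverage, but 37 CUTs of the 14 chromosomes stand after this order, with 0 around centromeres. Whether these were brought back was not tested. All intervals are 95% intervals and cover counting error only, and CUTs of 1 annotation are not replicates of a condition. Positions count from 1 on assembly R64.

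CUTs overlapped the centromeres of chromosomes I and XV and ended within 100 bp of those of chromosomes VI, VII, VIII and XI. The 6 CUTs within 100 bp of an annotated centromere all ran toward it, and in each the 3′ end was the end that faced the centromere. No test of these directions was made, because the pattern was noticed after the values were seen. It depends on the limit of 100 bp: within 200 bp of a centromere 6 CUTs ran toward it and 3 away. The nearest 5′ end of any CUT lay 137 bp from a centromere. In 5 of the 6 cases the 3′ end faced CDEIII and in 1 case it faced CDEI. Of the nearest CUTs on either side of the 14 centromeres, 14 ran toward the centromere. Among those, 8 faced CDEIII and 6 faced CDEI. The sequences of 5 of these centromeres follow because they are what the transcripts run up to, each printed from CDEI to CDEIII with both elements in capitals as the R64 annotation places them.
CEN1 (chrI:151465-151582, plus strand): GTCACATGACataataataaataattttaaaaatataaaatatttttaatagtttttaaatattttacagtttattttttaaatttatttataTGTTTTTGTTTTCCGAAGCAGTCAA
CEN8 (chrVIII:105586-105703, minus strand): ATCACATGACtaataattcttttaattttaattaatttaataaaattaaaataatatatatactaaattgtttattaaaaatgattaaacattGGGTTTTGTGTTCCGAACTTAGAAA
CEN7 (chrVII:496920-497038, minus strand): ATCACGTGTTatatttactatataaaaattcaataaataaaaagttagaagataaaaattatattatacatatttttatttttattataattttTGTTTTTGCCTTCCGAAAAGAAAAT
CEN6 (chrVI:148510-148627, plus strand): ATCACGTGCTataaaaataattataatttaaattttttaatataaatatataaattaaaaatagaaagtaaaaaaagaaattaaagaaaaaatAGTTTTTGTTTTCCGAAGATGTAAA
CEN11 (chrXI:440129-440246, minus strand): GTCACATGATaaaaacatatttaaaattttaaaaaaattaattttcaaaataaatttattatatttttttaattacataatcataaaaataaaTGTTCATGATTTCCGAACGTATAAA
All 14 centromeres measured between 111 and 119 bp, with an A and T content of 83.9% to 88.9% over the whole centromere and 90.5% to 97.6% in CDEII. The letters CCGAA were found in CDEIII at 14 of 14 centromeres, against 1.20% of all windows of 25 bp on either strand, and CANNTG in CDEI at 14 of 14, against 2.05% of all windows of 10 bp. Both elements are annotated as conserved sequence, so these matches describe the annotation and are not a finding about CUTs.

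The last 60 nt of the 5 CUTs at these centromeres are printed on the strand of the CUT, because these are the stretches that end beside a centromere. Capitals mark GTAA or GTAG, the letters of the Nrd1 motif, and TCTT, the letters of the Nab3 motif. A match of the Nrd1 motif and a match of the Nab3 motif cannot share a base, although matches of the same motif can. Only the strand of the CUT was searched.
CUT1874 (chrI:151536-151595, minus strand): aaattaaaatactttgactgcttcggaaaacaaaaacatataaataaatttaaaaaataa
CUT1566 (chrVIII:105714-105773, minus strand): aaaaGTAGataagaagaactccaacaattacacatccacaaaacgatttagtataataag
CUT574 (chrVII:496823-496882, plus strand): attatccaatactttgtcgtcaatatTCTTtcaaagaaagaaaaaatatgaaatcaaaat
CUT1377 (chrVI:148672-148731, minus strand): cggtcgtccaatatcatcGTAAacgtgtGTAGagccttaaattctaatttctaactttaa
CUT1295 (chrXI:439981-440040, plus strand): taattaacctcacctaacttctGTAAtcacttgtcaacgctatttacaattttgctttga
A GTAA or GTAG stood in the ends of 3 of the 6 CUTs and a TCTT in 1 of 6. Among the last 60 nt of all 222 CUTs around centromeres, 40.5% held GTAA or GTAG and 40.1% held TCTT. Of the CUTs farther away, 44.4% held GTAA or GTAG and 41.1% held TCTT. The shares among all windows of 60 nt on either strand of the 14 chromosomes were 33.3% and 34.5%. A match is a description of letters and not a mapped binding site, and the printed 3′ ends are the edges that the authors' hidden Markov model (HMM) drew.

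CUT1874 on chromosome I (151536 to 152065, minus strand, 530 nt) was the only one of the 6 that ran deep into a centromere. It covered 47 bp of CEN1, including all 25 bp of CDEIII and 22 bp of CDEII. Its coverage was 20.7 in *rrp6*Δ, against 3.06 in WT, a log2 ratio of 2.42, where the log2 ratio throughout compares *rrp6*Δ with WT coverage, each with a pseudocount of 1. This CUT had the highest coverage of the 6 in both groups. It starts 192 bp upstream of the coding sequence of NUP60, a nuclear pore protein, on the other strand, which is the divergent arrangement defined here as a start within 500 bp before a coding start of the opposite strand. CUT39 on chromosome XV (326359 to 326585, plus strand, 227 nt) shared 2 bp with the CDEIII end of CEN15, and its coverage was 2.12 in *rrp6*Δ, against 0.113 in WT. That value places it near the bottom of the annotation, at percentile 1.86 of *rrp6*Δ coverage.

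The other 4 stopped short of the centromere. CUT1566 on chromosome VIII (105714 to 105844, minus strand, 131 nt) ended 10 bp from CEN8 and started 211 bp upstream of OSH7, which encodes an oxysterol-binding protein. Its coverage was 10.3 in *rrp6*Δ, against 0.393 in WT, the largest log2 ratio of the 6 (3.02). CUT574 on chromosome VII (496758 to 496882, plus strand, 125 nt) ended 37 bp from CEN7, started 256 bp upstream of the ergosterol synthesis gene ERG26 and had a coverage of 3.74 in *rrp6*Δ and 0 in WT. CUT1377 on chromosome VI (148672 to 148848, minus strand, 177 nt) ended 44 bp from CEN6, with a coverage of 8.16 in *rrp6*Δ, against 0.809 in WT, and is divergent from LOC1, a factor of ribosome assembly and mRNA localization. CUT1295 on chromosome XI (439716 to 440040, plus strand, 325 nt) ended 88 bp from CEN11 with a coverage of 7.43 in *rrp6*Δ, against 0.413 in WT. It starts 331 bp upstream of MET14, the adenylylsulfate kinase of sulfate assimilation. In all, 5 of the 6 were divergent from a coding gene, 6 of 6 overlapped no coding sequence, and 3 of 6 were shorter than 200 nt. Among all CUTs around centromeres these shares were 54.5%, 37.8% and 16.7%. The comparison is not a like one, because the 6 were picked for their place beside a centromere. The nearest coding genes leave a gap there with a median of 397.5 bp.

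**Figure D1:**
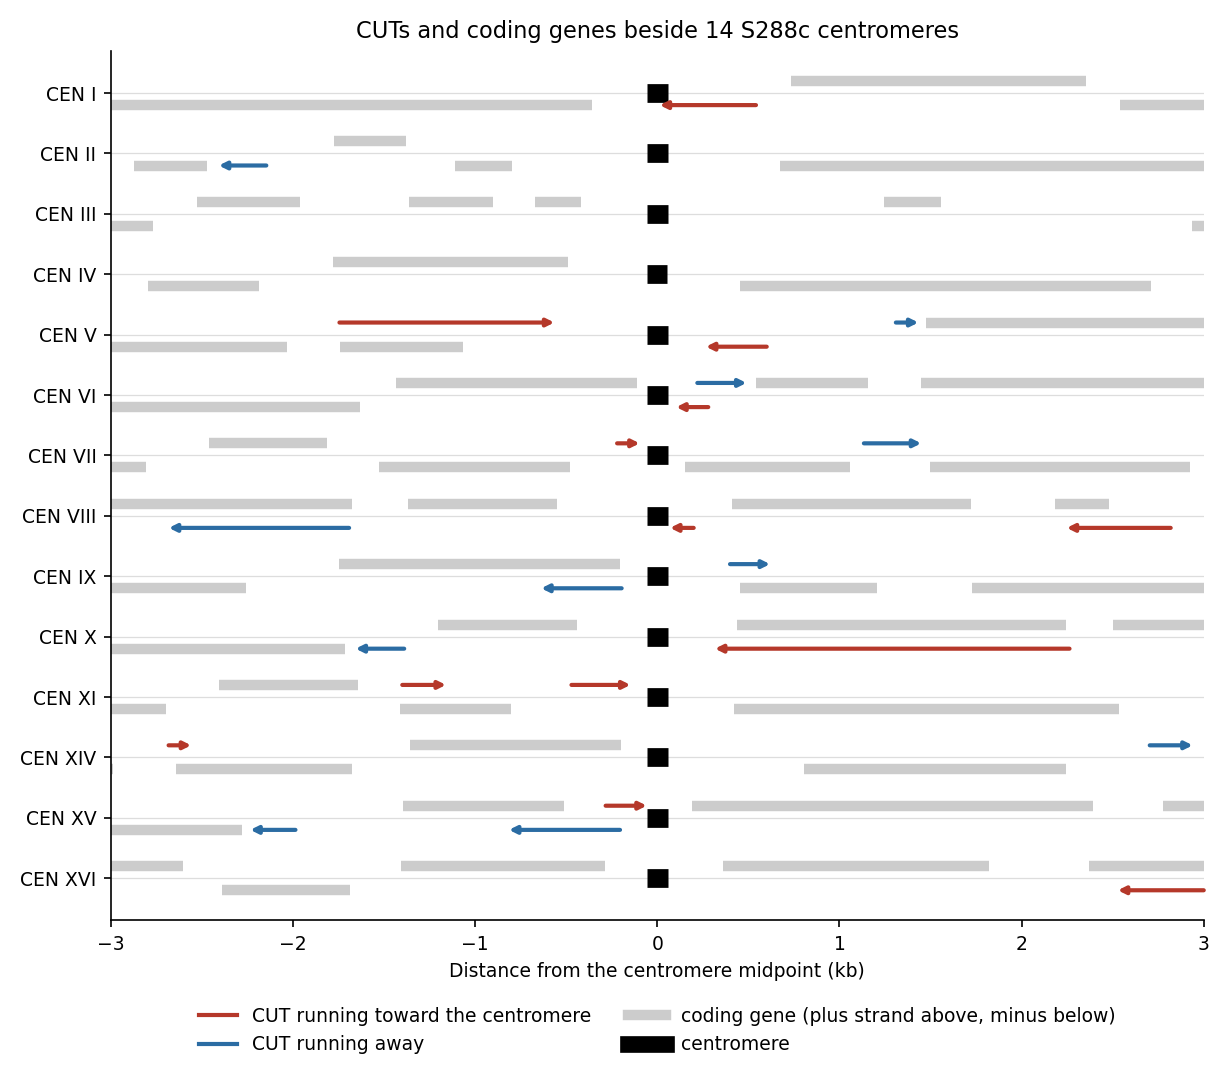
CUTs (arrows in the direction of transcription) and coding genes (grey bars) within 3 kb of the midpoint of each of 14 S288c centromeres (black), with the distance from the midpoint in kb on the x axis, 1 line per centromere and the plus strand drawn above the minus strand. Red arrows run toward the centromere and blue arrows away from it; arrowheads reach or nearly reach the centromere on chromosomes I, VI, VII, VIII, XI and XV, and no arrow starts within 100 bp of a centromere.

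Farther from the edge CUTs of both directions were found. Within 1 kb of a centromere lay 13 CUTs on 9 chromosomes, of which 9 ran toward the centromere and 4 away. Within 2 kb the counts were 10 toward and 9 away, and within 10 kb of the centromere edge they were 27 toward and 23 away. The nearest transcript to start beside a centromere and leave it was CUT54 on chromosome IX (355049 to 355491, minus strand), 137 bp from CEN9. It ran antisense into YIL001W and ended inside that gene, with a coverage of 2.165 in *rrp6*Δ, against 0.159 in WT. CUT1114 left the other side of CEN9 at 340 bp, with 74.2% of its length antisense to SGN1, an RNA-binding protein gene, and a coverage of 6.12 in *rrp6*Δ, against 0.531 in WT. CUT571 on chromosome X (436682 to 438629, minus strand, 1948 nt) ran toward CEN10, antisense over the vacuolar amino acid transporter gene AVT1 for 92.9% of its length, and stopped 256 bp short. Its coverage was 3.74 in *rrp6*Δ, against 0.861 in WT.

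Taking the nearest CUT on each of the 28 sides of the 14 centromeres, 14 ran toward the centromere and 14 away. The gap between CUT and centromere had a median of 1860.5 bp and reached 13678 bp on the right side of CEN2, where CUT989 was the first CUT. Counting only the closer side of each centromere, the median gap was 172 bp, and the widest was 5431 bp on chromosome III. The nearest coding genes left a gap of 50 to 1415 bp with a median of 397.5 bp, and 15 of those 28 genes pointed toward the centromere, against 13 that pointed away. The centromeres of chromosomes II, III, IV, XIV and XVI, had no CUT within 1 kb.

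At CEN15 the map has to be read with the genotype. RRP6 itself (chromosome XV, 326832 to 329033) lies beside CEN15 and is replaced by KanMX in the *rrp6*Δ cells. CUT39 ends 246 bp from RRP6, and CUT1717 (325828 to 326438, minus strand, 611 nt), which overlaps CUT39 on the other strand, starts 394 bp upstream of the RRP6 coding sequence and runs into PHO80, a cyclin gene of phosphate signalling. The coverage of CUT1717 was 13.3 in *rrp6*Δ, against 4.19 in WT. On chromosome V, CUT1999 lies 75 bp from URA3, a gene altered in both groups. In all, 6 CUTs around centromeres lay within 5 kb of RRP6 or URA3, and the part of these alleles in their coverage was not tested.

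The density of CUTs was somewhat lower around centromeres, by less than its counting error. The 222 CUTs in 1.4 Mb made 158.6 CUTs per Mb (exact Poisson interval 138 to 181), against 173 per Mb (165 to 182) farther away. The ratio of the densities was 0.915 with an exact interval of 0.791 to 1.05, which includes equality. It was 1.02 with a limit of 25 kb and 1.03 with a limit of 100 kb, so the order of the densities turned with the distance chosen. Without the weakest 25% of all CUTs by *rrp6*Δ coverage it was 0.843 (0.708 to 0.998), an interval just short of equality. With 30 kb at each chromosome end left out of the part farther away it was 0.880 (0.760 to 1.01). By chromosome the density was higher around the centromere on 9 and lower on 5 of 14. The counts ran from 6 CUTs on chromosome II to 23 on chromosome X, with a median of 17. Chromosome II had 60 per Mb around its centromere, against 161 per Mb farther away, and chromosome VI had 150 per Mb, against 94.0 per Mb. The same stretches held 514 coding genes per Mb around centromeres, against 495 farther away, which gives 30.9 CUTs per 100 genes, against 35.0.

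The 6 CUTs of the sparse window on chromosome II all overlapped no coding sequence on the other strand. CUT1770 (235857 to 236118) lies at the histone gene pair HTA2 and HTB2, with a coverage of 14.8 in *rrp6*Δ, against 1.39 in WT. CUT1662 (254666 to 254953) lies beside HHF1, which encodes histone H4, with a coverage of 11.9 in *rrp6*Δ, against 3.70 in WT. The highest of the 6 was CUT1883 over a tRNA gene, with 21.8 in *rrp6*Δ, against 6.40 in WT.

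**Figure D2:**
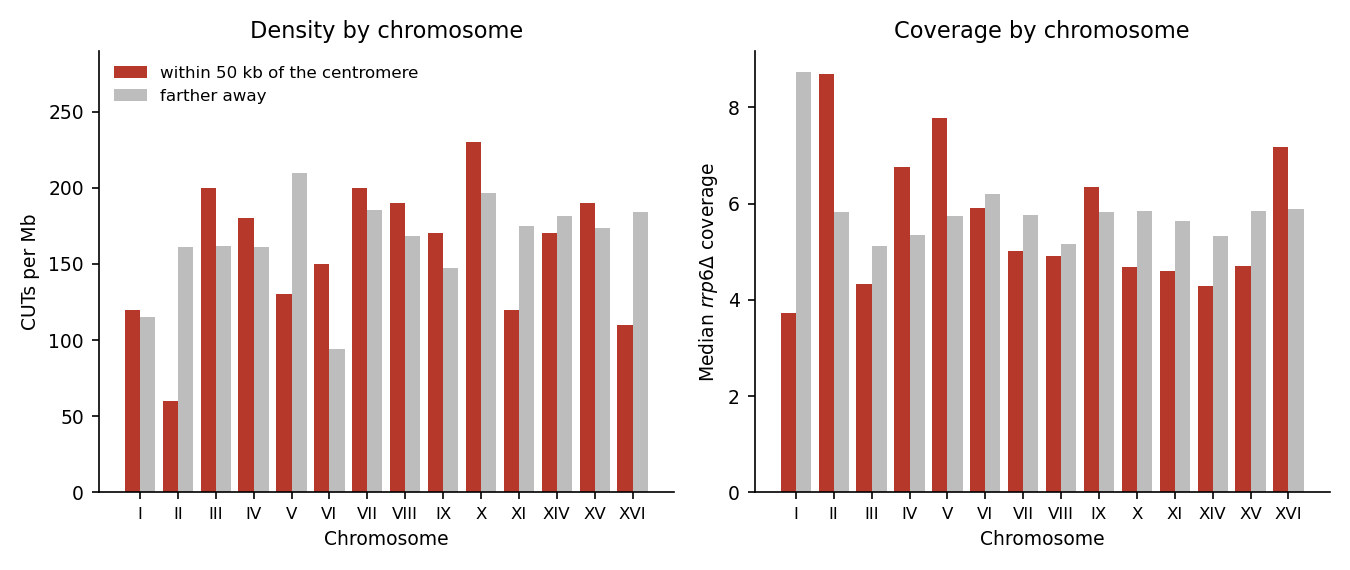
CUTs per Mb (left) and median *rrp6*Δ coverage (right) on each of 14 chromosomes, for CUTs within 50 kb of the centromere (red, left bar of each pair) and farther away (grey, right bar). The red bar is the higher on 9 of 14 chromosomes for density and on 5 of 14 for coverage.

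Density, direction and length were then followed in steps of 10 kb. The first 40 kb held 164 to 189 CUTs per Mb, and the step between 40 and 50 kb held 29 CUTs, or 104 per Mb (69.4 to 148.7). It was the sparsest of 10 steps out to 100 kb, and the next but one, between 60 and 70 kb, followed with 125 per Mb. Of these 29 CUTs on 12 chromosomes, 22 ran toward the centromere (75.9%, Wilson interval 57.9% to 87.8%), whereas the 4 steps nearer to the centromere had shares of 49.1% to 50%. Examples are CUT1355 on chromosome III, antisense to BIK1 and divergent from HIS4, with a coverage of 7.90 in *rrp6*Δ, against 0.614 in WT, and CUT189 on chromosome VIII, antisense to the meiotic recombination gene SPO11, with 2.53 in *rrp6*Δ, against 0.531 in WT. This step was singled out among 10 after the values were seen. Median length per step was 320.5, 376, 430.5, 446.5 and 570 nt with growing distance up to 50 kb, and the next steps had 357.5, 431, 519, 337 and 390 nt. The intervals of neighbouring steps overlapped up to 50 kb.

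**Figure D3:**
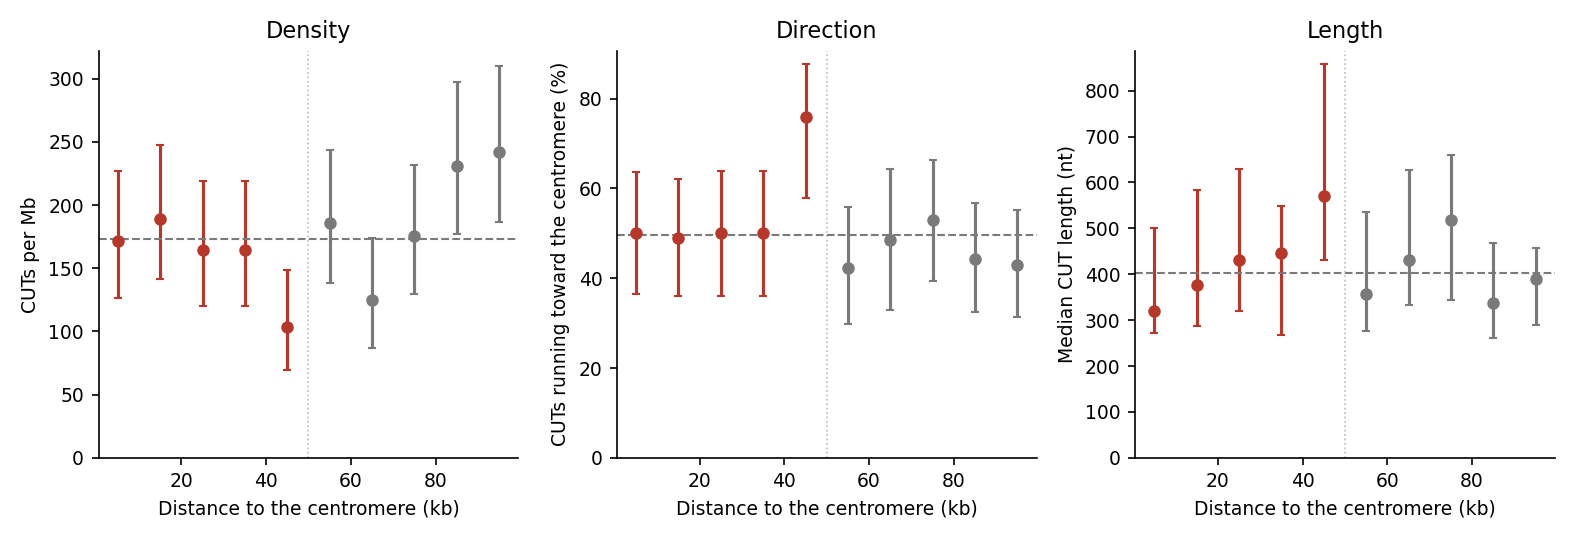
CUTs per Mb, percent of CUTs running toward the centromere, and median CUT length in nt by distance to the centromere in steps of 10 kb, summed over 14 chromosomes. Points are values and bars 95% counting intervals; red points lie within 50 kb and grey points beyond, the dashed line is the value for all CUTs farther away than 50 kb, and the step from 40 to 50 kb has the lowest density (104 per Mb) and the highest share toward the centromere (75.9%).

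Neither strand prevailed. Of the CUTs around centromeres, 116 lay on the minus strand, which leaves a plus share of 47.7% (41.3% to 54.3%), against 48.8% (46.3% to 51.3%) farther away. In terms of the centromere, 118 of 222 ran toward it (53.2%, 46.6% to 59.6%), against 49.5% (47.0% to 52.1%) of CUTs farther away. With a limit of 25 kb the share was 48.4%, against 50.1%, so this order turned as well. CUTs toward the centromere outnumbered those away from it on 6 chromosomes, were fewer on 6 and equal on 2, with the largest excess on chromosome VII (15 toward, 5 away).

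Coverage in *rrp6*Δ was slightly lower around centromeres in the middle of the distribution. Its median was 4.97 (4.47 to 5.76), against 5.72 (5.46 to 5.95) farther away, and it was lower around the centromere on 9 of 14 chromosomes. The WT median was 0.652 (0.574 to 0.809) around centromeres, against 0.738 (0.694 to 0.791) farther away, and it was lower around the centromere on 10 of 14 chromosomes. The median log2 ratio was 1.70 (1.63 to 1.80), against 1.76 (1.73 to 1.78), with chromosomes split 7 and 7. In each case the intervals overlap. When the weakest 25% of all CUTs by *rrp6*Δ coverage were left out, the medians were 7.55 around centromeres and 7.16 farther away, and the order of the medians turned. Below the lowest decile limit of *rrp6*Δ coverage over all CUTs lay 12.6% of those around centromeres (28 CUTs), and above the highest one 10.8% (24 CUTs). WT coverage was listed as 0 for 10 CUTs (4.50%, 2.46% to 8.09%), against 2.80% (2.08% to 3.76%).

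Median length was 434.5 nt (370 to 504) around centromeres, against 402.5 nt (387 to 421) farther away, and it was longer on 6 chromosomes and shorter on 8. CUTs under 200 nt made up 16.7%, against 14.8%, and CUTs over 1500 nt 5.41%, against 3.93%. With a limit of 25 kb the median length was 349 nt, against 407 nt, the opposite order. CUTs covered 4.51% of the strand length around centromeres, against 4.66% farther away.

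**Figure D4:**
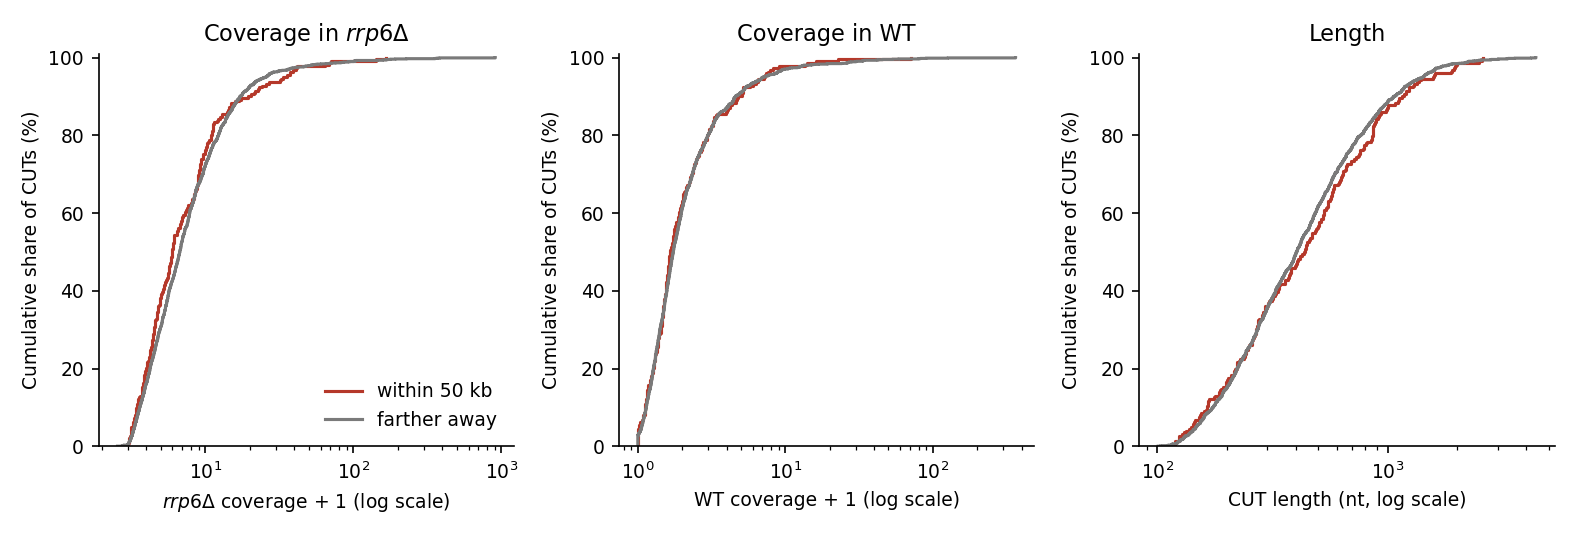
Cumulative share of CUTs (%) by *rrp6*Δ coverage + 1, WT coverage + 1 and length in nt, each on a log axis, for the 222 CUTs within 50 kb of a centromere (red) and the 1502 farther away (grey). The red curve of *rrp6*Δ coverage lies left of the grey one around the median (4.97 against 5.72), and the curves run close together in WT coverage (median 0.652 against 0.738).

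The share of mostly antisense CUTs was lower around centromeres, within overlapping intervals, and the share mostly outside coding sequence was higher, with intervals that do not overlap. No test of these differences was made. Around centromeres 100 CUTs (45.0%, 38.6% to 51.6%) had at least 50% of their length antisense to coding sequence, against 52.2% (49.7% to 54.7%) farther away. CUTs called mostly outside coding sequence were under 50% antisense and under 50% sense to it, each share taken alone. They numbered 120 around centromeres (54.1%, 47.5% to 60.5%), against 44.1% (41.6% to 46.7%) farther away. With 30 kb at each chromosome end left out of the part farther away, its mostly antisense share was 54.6% (52.0% to 57.2%). That interval does not overlap the one around centromeres. CUTs with no coding overlap at all made up 37.8% (31.7% to 44.4%), against 31.9% (29.6% to 34.3%), where the intervals overlap. Per Mb this made 71.4 mostly antisense CUTs (58.1 to 86.9), against 90.4 (84.2 to 97.0), and 85.7 mostly outside coding sequence (71.1 to 102), against 76.5 (70.8 to 82.5). Starts within 300 bp of the end of a coding gene on the other strand were found for 41.4% of CUTs (35.2% to 48.0%), against 49.9% (47.4% to 52.5%). The divergent arrangement was as frequent around centromeres as elsewhere, with 54.5% (47.9% to 60.9%), against 54.2% (51.7% to 56.7%). CUTs mostly on the sense strand of a gene numbered 3, CUT1251 at HSP30, CUT1136 at NAG1 and CUT1543 at TIR4, or 1.35% (0.461% to 3.90%), against 3.79% (2.94% to 4.89%). CUT1136 is also wholly antisense to IMO32 and is counted in the mostly antisense class as well.

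Coverage was also compared within these classes, without a test of the difference between them. The mostly antisense CUTs had a median *rrp6*Δ coverage of 3.96 (3.50 to 4.71), against 5.01 (4.66 to 5.28) farther away, and the intervals overlap narrowly. Their WT median was 0.577 around centromeres, against 0.570 farther away. CUTs mostly outside coding sequence had medians of 6.55 (5.14 to 8.16) around centromeres and 6.57 (5.97 to 7.16) farther away, and their WT median was 0.836 (0.608 to 1.27) around centromeres, against 0.965 (0.877 to 1.05) farther away. This split by gene context was chosen after the medians of all CUTs were known. The strongest antisense CUT around a centromere was CUT1949 on chromosome VIII (69584 to 70095), with 70.9% of its length antisense to MCO14 and a coverage of 36.1 in *rrp6*Δ, against 1.51 in WT. It also had the largest log2 ratio of all CUTs around centromeres (3.89). CUT1742 on chromosome VII lay wholly antisense to SNU71, a gene of the U1 snRNP, with 13.95 in *rrp6*Δ, against 0.657 in WT. CUT1667 on chromosome VIII ran antisense over SOD2, the mitochondrial superoxide dismutase gene, with 12.1 in *rrp6*Δ, against 1.96 in WT.

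The 50 kb flanks of centromeres held more tRNA genes and remnants of Ty retrotransposons than the sequence farther away. There were 43.6 tRNA genes per Mb around centromeres (33.3 to 56.0), against 19.8 (16.99 to 23.0) farther away, and 65 long terminal repeats (LTRs) or Ty elements per Mb (52.3 to 79.8), against 32.1 (28.4 to 36.1). A tRNA gene was overlapped by 10 CUTs (4.50%, 2.46% to 8.09%), against 1.33% (0.864% to 2.05%) of CUTs farther away. Of these, 9 of the 10 shared its strand around centromeres and 19 of 20 farther away. Per tRNA gene the difference was smaller: 10 of 61 had a CUT around centromeres (16.4%, 9.16% to 27.6%), against 20 of 172 (11.6%, 7.65% to 17.3%). The 10 CUTs around centromeres had a median coverage of 12.3 in *rrp6*Δ and 2.94 in WT, against 11.6 and 1.78 for the 20 farther away. Of the 10, the highest was CUT1980 on chromosome III (123383 to 123656, minus strand), over the tRNA gene SUF2, with 67.3 in *rrp6*Δ, against 6.90 in WT. CUT1957 on chromosome IV (488608 to 489267), over a tRNA gene and divergent from the seryl-tRNA synthetase gene SES1, had 37.9 in *rrp6*Δ, and the lowest was CUT533 on chromosome XV over SUF17 with 3.62 in *rrp6*Δ. Reads were mapped uniquely by the authors, and the part of repeated sequence in these values was not tested. An LTR or Ty element was overlapped by 10 CUTs (4.50%, 2.46% to 8.09%), against 1.997% (1.403% to 2.84%) farther away, and 2 of the 10 also overlapped a tRNA gene. Per element the shares were close, with a CUT over 13 of 91 around centromeres (14.3%, 8.54% to 22.9%), against 41 of 278 (14.7%, 11.1% to 19.4%). Without the CUTs over tRNA genes or Ty sequence, 204 CUTs remained around centromeres with a median *rrp6*Δ coverage of 4.87 (4.30 to 5.18), against 5.68 (5.42 to 5.87) farther away. These intervals do not overlap, unlike those of all CUTs, and no test of the difference was made.

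The highest coverage of any CUT around a centromere belonged to CUT2001 on chromosome X (471961 to 472509, minus strand), which starts 251 bp from the Ty gene YJR027W and shares 47 bp with Ty sequence. Its coverage was 165 in *rrp6*Δ, against 70.3 in WT, a log2 ratio of only 1.22. CUT1999 on chromosome V (117046 to 118155, minus strand) followed with 140 in *rrp6*Δ, against 21.7 in WT, and reaches antisense into TIM9, a gene of the mitochondrial import chaperones. CUT1984 on chromosome VII (534935 to 535801), at the Ty gene YGR027W-B, had 69.1 in *rrp6*Δ, against 12.5 in WT. CUT1978 on chromosome III (124427 to 125010), on the same strand as CUT1980 and close to it, had 63.6 in *rrp6*Δ, against 5.50 in WT. Farther from centromeres the highest *rrp6*Δ coverage was 908.

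After CUT1949, the largest log2 ratios belonged to CUT1948, CUT1914, CUT1490 and CUT1978. CUT1948 on chromosome IV (443453 to 444265, minus strand) starts 418 bp upstream of MCD1, the kleisin subunit of cohesin, and was the first CUT to the left of CEN4, with 36.1 in *rrp6*Δ and a log2 ratio of 3.51. CUT1914 on chromosome V (177239 to 178600) lies antisense to the proteasome gene PRE1 over 43.8% of its length and is divergent from the splicing helicase gene PRP22, with 25.97 in *rrp6*Δ and a log2 ratio of 3.51. CUT1490 on chromosome IV (442563 to 442855) is divergent from the Mediator gene MED2, with 9.33 in *rrp6*Δ and a log2 ratio of 3.33. Across the 222 CUTs the log2 ratio ran from 0.89 to 3.89. Without a pseudocount, 75 CUTs (33.8%, 27.9% to 40.2%), those with a WT coverage of 0 included, had a *rrp6*Δ coverage over 10 times that in WT, against 36.5% (34.1% to 38.95%) farther away.

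The 3 longest CUTs around centromeres were each antisense to more than 1 gene. CUT1553 on chromosome X (466472 to 469063, 2592 nt) overlaps ESS1, a prolyl isomerase of the polymerase tail, TES1 and REC107, and is divergent from ILV3 of branched-chain amino acid synthesis. Its *rrp6*Δ coverage was 10.2. CUT122 on chromosome III (103638 to 106198, 2561 nt) overlaps SGF29 of the SAGA complex, ILV6 and STP22 at a coverage of 2.37, and CUT343 on the same chromosome (139246 to 141745, 2500 nt) overlaps the DNA polymerase gene POL4 and CTO1 at 3.05. The 100 mostly antisense CUTs together overlapped 112 genes on the other strand.

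**Figure D5:**
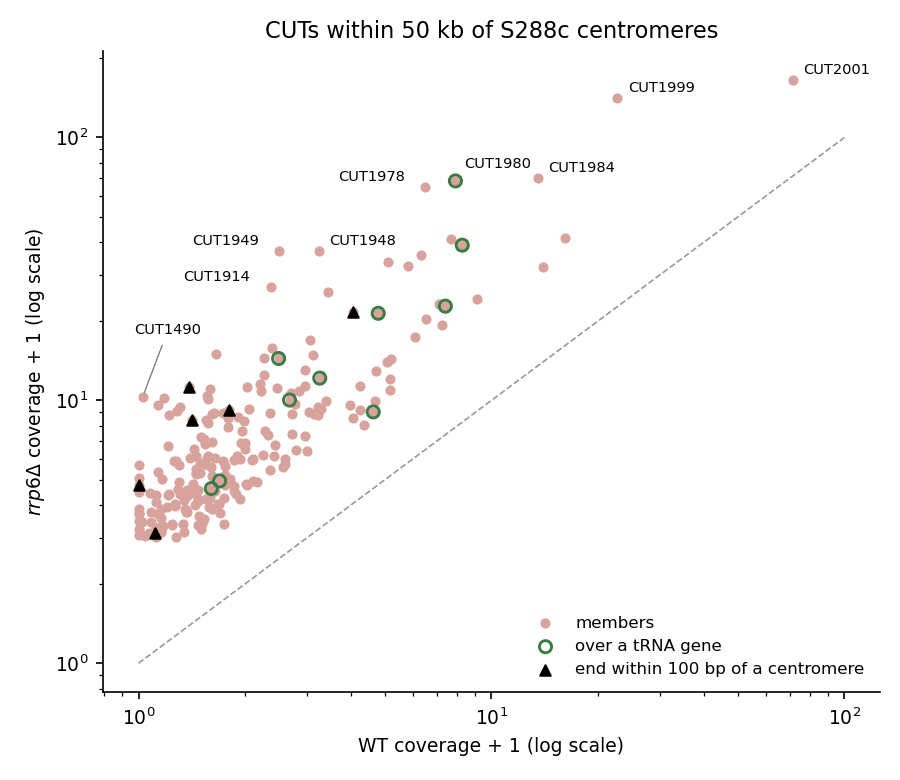
Coverage + 1 in *rrp6*Δ (y axis) and WT (x axis), both on log scales, for the 222 CUTs within 50 kb of a centromere; the dashed line marks equal coverage. Green rings mark the 10 CUTs over a tRNA gene, black triangles the 6 CUTs that end within 100 bp of a centromere, and names the CUTs with the highest *rrp6*Δ coverage or log2 ratio; the triangles spread from 2.12 to 20.7 in *rrp6*Δ coverage.

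Base composition and the Nrd1 and Nab3 motifs set CUTs around centromeres little apart. The median GC content was 37.5% (36.4% to 38.6%), against 38.3% (38.1% to 38.6%), on sequence with 38.2% GC around centromeres and 38.3% farther away. GTAA or GTAG occurred 8.78 times per kb of CUT, against 9.13, and TCTT 11.2 times per kb, against 10.9. Of the 185 CUTs with at least 200 nt, 161 (87.0%, 81.4% to 91.1%) held GTAA or GTAG in the first 200 nt, against 84.5% (82.4% to 86.4%) of those farther away, and the same number, 161, held TCTT, against 82.7% (80.6% to 84.7%). Among all windows of 200 bp on either strand the shares were 73.9% and 73.1%.

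Just inside the limit of 50 kb lay CUT1136 on chromosome VII at 49985.5 bp, CUT1348 on chromosome XIV at 49813 bp and CUT1402 on chromosome I at 49302 bp, with a *rrp6*Δ coverage of 6.28, 7.82 and 8.40 in this order. Just outside lay CUT1260 on chromosome III at 50142 bp, CUT1799 on chromosome XI at 50287 bp and CUT102 on chromosome V at 50335 bp, with 7.16, 16.0 and 2.31.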

How the data were processed

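Reads were mapped by the authors with Bowtie 0.12.7 and turned into coverage with bedtools 2.16.2 (submitters' processing notes), on sacCer3. The deposited coverage signal of *rrp6*Δ and WT is the authors' mean per nucleotide of a CUT, corrected for first nucleotide bias and mappability, scaled and averaged over the 2 replicates. CUTs were found by the authors with an HMM, filtered and merged, and some filtered CUTs were brought back. The deposited column of average *rrp6*Δ to WT fold change is the authors' own comparison and was not used. Centromere positions were rounded to 1 kb, and genes and centromere elements came from R64. Exact Poisson, conditional binomial and order statistic intervals (95%) were tested on simulated data, and Wilson intervals (95%) were not. All of them cover counting error only. Named CUTs are those nearest to each centromere, the 5 with the highest *rrp6*Δ coverage, the 5 with the largest log2 ratio, the 3 longest, those over tRNA genes and those beside the limit; others were named after their values were seen. CUTs and lists were chosen with earlier results of these data known. Alternatives were other distance limits, centromere positions, lengths, coverage minimums and pseudocounts. Others were the start of the CUT, any antisense overlap, only CUTs in the coverage order, chromosome ends left out and each chromosome left out. The 3 other strains were left out, and 1 centromere sequence with the CUT end beside it is not reported here. Values were computed in Python 3.11.15 (SciPy 1.17.1, pandas 2.3.3, NumPy 2.4.6) and drawn with matplotlib 3.10.9.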

Additional observations from a re-analysis of the deposited data

How the results depend on the processing

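A limit of 25 kb left 122 CUTs with a median length of 349 nt, and a limit of 100 kb gave 482 CUTs. A minimum length of 200 nt gave 132.1 CUTs per Mb around centromeres and 147.5 farther away, median lengths of 512 nt around centromeres and 463 nt farther away, and 54.9% mostly antisense CUTs farther away. Without the weakest 25% of CUTs by *rrp6*Δ coverage, the values around centromeres and farther away were 110.7 and 131.3 CUTs per Mb (ratio 0.843, 0.708 to 0.998), *rrp6*Δ medians of 7.55 and 7.16 and WT medians of 1.05 and 1.03. Both medians were then higher around centromeres, the opposite of their order over all CUTs. Around centromeres and farther away, the log2 ratios were 1.89 and 1.89 and the mostly antisense shares 38.1% and 47.6%, with a median length of 423.5 nt farther away. A pseudocount of 0.1 gave log2 ratios of 2.70 around centromeres and 2.73 farther away, and counting any antisense overlap gave shares of 56.3% around centromeres and 61.6% farther away. The cause of these shifts was not tested beyond what each alternative leaves out. The other 143 of 166 values moved by less than their interval or, for counts, by less than 1.5 times. Leaving out CUTs within 5 kb of RRP6, URA3, LEU2, HIS3 or LYS2 was chosen after seeing the data, and all 18 of its values were among these. Leaving out each of the 14 chromosomes in turn moved none of 252 values beyond those bounds, and the density ratio ran from 0.893 to 0.953. No paired analysis was possible because the authors averaged the replicates before deposit, and for the same reason no replicate could be left out.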
